A study of Mus musculus with 6 samples.

Results

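The BCL2 family decides at the outer membrane of mitochondria whether a cell lives or dies. Its 10 members examined here were matched by the gene name in the deposited files, and 10 of 10 were found among 54446 genes. They are the prosurvival genes *Bcl2*, *Bcl2l1*, *Mcl1* and *Bcl2a1b*, the effectors *Bax* and *Bak1*, and the BH3-only genes *Bcl2l11*, *Bid*, *Bbc3* and *Pmaip1*. RNA-Seq was available for 6 libraries of negatively selected CD8+ T cells from the spleens of C57BL/6 mice 8 weeks old, 2 for each of 3 groups. Unstimulated cells were fresh, control cells were activated through CD3 and CD28 by antibodies over 72 h without magnets, and SMF-treated cells were activated alike over 72 h in a static magnetic field of 0.3 T. Nothing in the labels says whether the replicates came from separate mice or cultures, so p values measure only the spread between these libraries. The levels are gene FPKM, fragments scaled to transcript length and library size, and can therefore be set side by side between genes.

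In this family the prosurvival proteins bind and restrain the others. The effectors BAX and BAK open the outer membrane, which releases cytochrome c and starts the caspase cascade. BH3-only proteins carry death signals by occupying the prosurvival proteins or by activating the effectors directly. Naive T cells are known to depend on BCL2 and interleukin 7, activated T cells raise BCL-XL (the product of *Bcl2l1*) and A1 (the product of the *Bcl2a1* copies), and BIM (the product of *Bcl2l11*) is known for the removal of T cells once a response ends.

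Dates in the folder names of the file headers fall in 3 months, which are taken here as 3 runs. The sample labels name no run. Unstimulated and control replicate 1 belong to June 2017, replicate 2 of each to November 2017, and the SMF libraries to October 2018, so that 0 of 3 runs held both SMF-treated and control cells. The field and the run cannot be told apart in any value below that sets SMF-treated cells against the others. Depth, as bases covered, was 64.4 to 172 Mb in the 4 libraries of 2017 and 227 to 259 Mb in the SMF libraries. Protein-coding genes took 49.1 to 50.5% of summed FPKM in the former and 68.7 to 69.2% in the latter. Of 14991 genes tested, 9.17 to 19.7% were listed at 0 in a given library, so a 0 below means only that the gene is listed at 0. Of 6 CD8 T cell markers, 6 were above 0 in all 6 libraries.

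Of the 60 values of the members, 58 were above 0. *Bax* and *Bcl2l1* were listed at 0 in unstimulated replicate 1 and the other 8 members were detected in all 6 libraries. In unstimulated cells *Mcl1* stood highest, above 60 FPKM in both libraries, and did not overlap with *Bid*, the next. *Bid*, *Bcl2a1b* and *Bcl2* followed with overlapping neighbours, and *Bbc3* overlapped with neither *Bcl2* above it nor *Bcl2l11* below it. *Bcl2l11*, *Bak1*, *Pmaip1*, *Bax* and *Bcl2l1* filled the lower end and each overlapped with its neighbour. In control cells *Bcl2a1b* and *Mcl1* led with overlapping values. In SMF-treated cells *Mcl1*, *Bcl2a1b* and *Bax* were the 3 highest, all above 59 FPKM in both libraries, and *Bax* did not overlap with *Bcl2l1*, which came next.

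**Figure D1:**
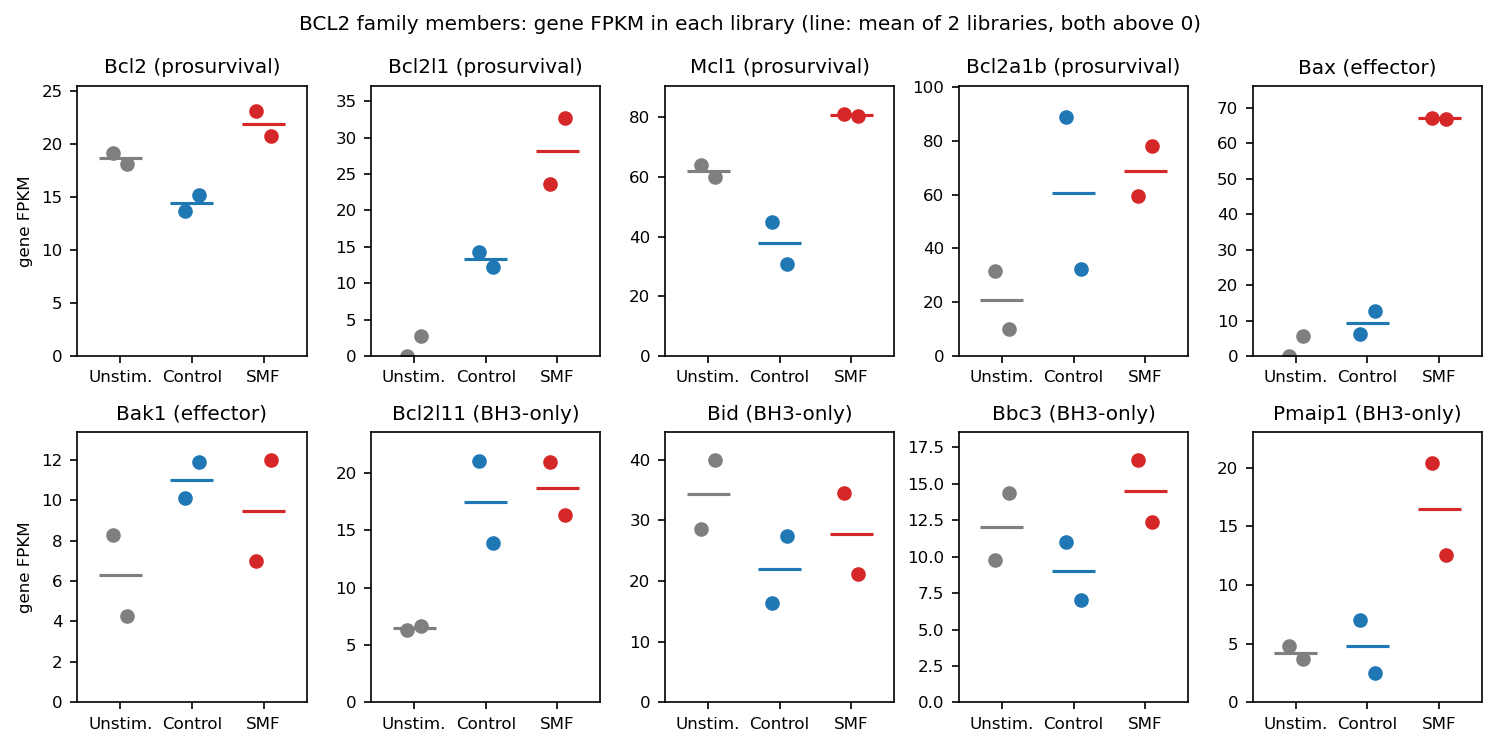
Gene FPKM of the 10 members, one panel per gene with its own linear axis from 0; each point is a library and each line the mean of the 2 libraries of a group where both are above 0. In SMF-treated cells *Bax* lies at 67.2 and 67.0 FPKM, whereas no other library exceeds 12.6 FPKM.

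*Bcl2l1* (ENSMUSG00000007659.18), which encodes BCL-XL, lies on the minus strand of chromosome 2 of GRCm38, from 152780668 to 152831728. It was listed at 0 and at 2.67 FPKM in the unstimulated libraries, reached 14.3 and 12.3 FPKM in control cells and 23.7 and 32.7 FPKM in SMF-treated cells. The 3 groups did not overlap, and control cells exceeded unstimulated cells within each of the 2 runs that held both. *Bcl2l1* was higher in control than in unstimulated cells by 2.89 on the log2(FPKM + 1) scale (SE 0.67, adjusted p = 0.0523 and unadjusted p = 0.0046, both from limma, the former by the Benjamini-Hochberg method over all genes). Against the unstimulated library above 0 alone, that is without unstimulated replicate 1, the change was 1.96. For SMF-treated against unstimulated cells it was 3.91 (SE 0.67, adjusted p = 0.0130 from limma), and 2.97 and 4.85 without unstimulated replicate 1 and 2. Between SMF-treated and control cells the difference was 1.02 with a 95% interval from -0.61 to 2.65, which did not pass the test (unadjusted p = 0.178 from limma). It passed when only these 4 libraries were fitted (unadjusted p = 0.0250 from limma) or when either unstimulated library was left out. The bases covered on *Bcl2l1* were 0 and 0.386 kb in unstimulated cells, 3.08 and 5.89 kb in control cells and 15.2 and 19.7 kb in SMF-treated cells.

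The stretch before a start site of *Bcl2l1* is shown because this member had the clearest change on stimulation. It spans chr2:152830698-152830967 on the minus strand of GRCm38.p6 (RefSeq), and the capitals mark a match to the NF-kappaB consensus, which 8.46% of 32851 promoter windows of mouse genes hold on either strand. The other start windows of *Bcl2l1* held no such match. The match is a description of the letters and not a site.
Bcl2l1 promoter: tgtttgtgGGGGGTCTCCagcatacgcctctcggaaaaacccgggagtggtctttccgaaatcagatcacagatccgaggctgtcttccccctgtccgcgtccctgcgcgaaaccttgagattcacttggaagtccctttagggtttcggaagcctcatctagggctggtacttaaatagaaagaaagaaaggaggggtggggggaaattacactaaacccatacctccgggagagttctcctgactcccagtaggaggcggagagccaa

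*Mcl1* (ENSMUSG00000038612.16), on chromosome 3 from 95658788 to 95663176, encodes a short-lived prosurvival protein that lymphocytes of all stages need. It measured 64.1 and 60.1 FPKM in unstimulated cells, 45.0 and 30.7 FPKM in control cells, and 81.3 and 80.5 FPKM in SMF-treated cells. The control libraries were the 2 lowest and the SMF libraries the 2 highest of the 6, with no overlap between any groups. Over control cells, SMF-treated cells had *Mcl1* higher by 1.10 (log2 scale, SE 0.29, adjusted p = 0.159 and unadjusted p = 0.0089 from limma). The difference of control from unstimulated cells was -0.72 (SE 0.29, unadjusted p = 0.0475 from limma), under the 2-fold limit. That of SMF-treated from unstimulated cells was 0.38, with a 95% interval from -0.33 to 1.09. The call for SMF-treated against control cells was lost when libraries were put on one median (0.76, unadjusted p = 0.0502 from limma) or on one sum of protein-coding FPKM (0.77, under the 2-fold limit), and without control replicate 2 (0.83).

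*Bcl2* (ENSMUSG00000057329.7), on the minus strand of chromosome 1 from 106538178 to 106714274, is the founding member and the survival factor of resting T cells. It was at 19.2 and 18.1 FPKM in unstimulated cells, 13.7 and 15.2 FPKM in control cells, and 23.1 and 20.7 FPKM in SMF-treated cells. As for *Mcl1*, control cells were lowest and SMF-treated cells highest without overlap, but all 6 values lay within a narrow range and 0 of the 3 differences passed the test. They were -0.35 for control against unstimulated, 0.57 for SMF-treated against control and 0.22 for SMF-treated against unstimulated cells, each with an SE of 0.32. Exons of *Bcl2* face those of *D630008O14Rik* on the opposite strand over 558 of 9157 bases, and that gene measured 170 to 340 FPKM, well above *Bcl2* itself.

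*Bcl2a1b* (ENSMUSG00000089929.1), on chromosome 9 from 89199209 to 89207827, encodes A1, a prosurvival protein induced by antigen receptor and NF-kappaB signals. It measured 31.4 and 10.2 FPKM in unstimulated cells, 89.0 and 32.3 FPKM in control cells and 59.6 and 78.0 FPKM in SMF-treated cells. The replicates of the unstimulated and of the control cells were both far apart, with replicate 1 the higher, and control cells spanned the SMF values. The rise over unstimulated cells was called in SMF-treated cells (1.86, SE 0.66, adjusted p = 0.0897 from limma), but that call was lost without unstimulated replicate 2 (1.09), without either SMF library, and under both rescalings. In control cells the difference was 1.52 (SE 0.66, unadjusted p = 0.0598 from limma), and 1.47 and 1.58 within the 2 runs. With a library left out it ran from 0.75 without unstimulated replicate 2 and 0.81 without control replicate 1 (unadjusted p = 0.383 and 0.353 from limma) to 2.24 without control replicate 2, where it was called (unadjusted p = 0.0470 from limma), and 2.29 without unstimulated replicate 1. Between SMF-treated and control cells it was 0.34, with a 95% interval from -1.27 to 1.95. Exons of *Bcl2a1b* share 401 of 817 bases with *Gm29094* on the same strand. That gene was at 1.55 FPKM in unstimulated replicate 2 and listed at 0 elsewhere.

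The mouse carries several copies of this gene, and reads can be split among them. The coding sequences of *Bcl2a1b*, *Bcl2a1a* and *Bcl2a1d*, 516 bases each, were 97.9% identical between b and a and 98.8% between b and d, with 11 and 6 differing positions, and 98.6% between a and d, with 7. The longest identical runs were 217 bases between b and either copy and 314 between a and d. The first 90 coding bases (GENCODE M21 transcripts, GRCm38) are shown because they hold 6 of the differing positions, marked by capitals, and nothing but matching bases elsewhere.
Bcl2a1b: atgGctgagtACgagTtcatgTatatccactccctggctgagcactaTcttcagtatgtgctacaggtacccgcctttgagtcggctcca
Bcl2a1a: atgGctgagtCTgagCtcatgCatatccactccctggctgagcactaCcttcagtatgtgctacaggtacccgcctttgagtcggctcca
Bcl2a1d: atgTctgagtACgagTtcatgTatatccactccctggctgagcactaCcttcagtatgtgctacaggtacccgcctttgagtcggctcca

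*Bcl2a1d* was at 1.86 FPKM and listed at 0 in unstimulated cells, at 20.3 and 19.7 FPKM in control cells and at 34.8 and 35.5 FPKM in SMF-treated cells. It was higher than in unstimulated cells by 3.64 in control cells (SE 0.57, adjusted p = 0.0198 from limma) and by 4.42 in SMF-treated cells (SE 0.57, adjusted p = 0.0064 from limma). *Bcl2a1a* was listed at 0 in 1 library each of unstimulated and control cells and reached at most 12.2 FPKM. Summed over the 4 copies, the level was 45.5 and 10.2 FPKM in unstimulated cells, 109 and 56.9 FPKM in control cells and 99.5 and 118 FPKM in SMF-treated cells. On this sum, which was added after the data were seen, control cells were higher than unstimulated cells by 1.81 (SE 0.69, unadjusted p = 0.0383 from limma), and SMF-treated cells by 2.27 (SE 0.69, adjusted p = 0.0605 from limma). SMF-treated and control cells differed by 0.45 (SE 0.69) on the sum.

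**Figure D2:**
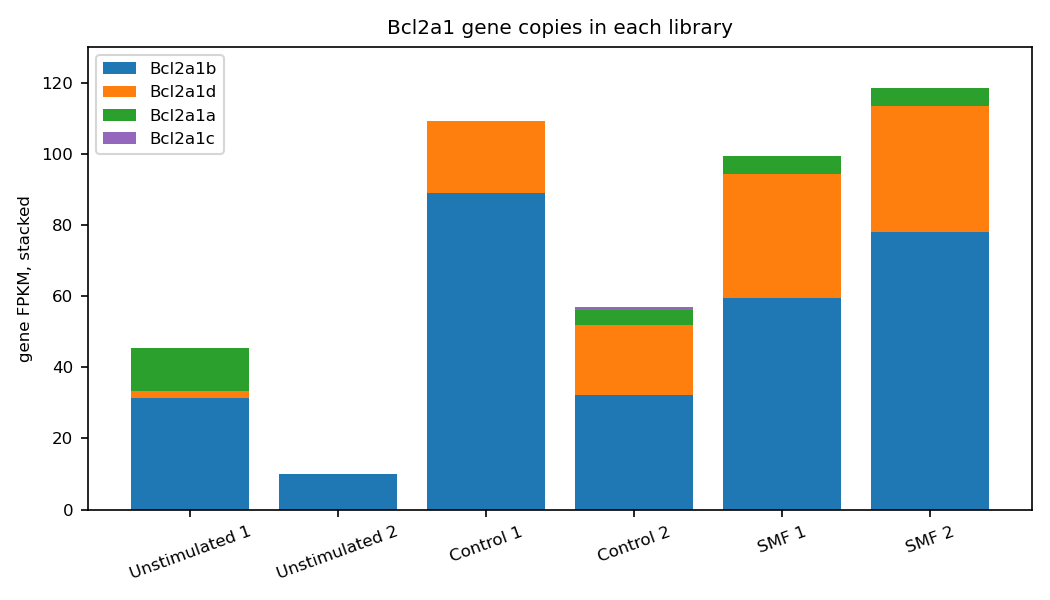
Gene FPKM of the 4 *Bcl2a1* copies stacked for each library on a linear axis from 0. *Bcl2a1b* takes the largest part in every library, *Bcl2a1d* appears at 19.7 FPKM or more in the 4 stimulated libraries, and *Bcl2a1c* is above 0 in control replicate 2 alone, at 0.789 FPKM.

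*Bax* (ENSMUSG00000003873.11) lies on the minus strand of chromosome 7 from 45461697 to 45466898 and encodes a pore-forming effector that is held in the cytosol until a death signal arrives. It was listed at 0 and at 5.59 FPKM in unstimulated cells, measured 6.25 and 12.6 FPKM in control cells and 67.2 and 67.0 FPKM in SMF-treated cells. Both SMF libraries stood far above the other 4. Both control libraries stood above both unstimulated libraries, with 6.25 against 5.59 FPKM where they came nearest. The fitted change was 2.78 for SMF-treated against control cells (SE 0.89, adjusted p = 0.182 and unadjusted p = 0.0195 from limma) and 4.73 against unstimulated cells (SE 0.89, adjusted p = 0.0165 from limma). It was the largest change among the members in both comparisons with SMF-treated cells. The change from unstimulated to SMF-treated cells was 3.37 without unstimulated replicate 1 and 6.09 without unstimulated replicate 2, called in both cases. For control against unstimulated cells the difference was 1.95 (SE 0.89, unadjusted p = 0.0691 from limma), and 2.86 and 1.04 within the 2 runs. Without unstimulated replicate 1, the library listed at 0, it was 0.59 (unadjusted p = 0.306 from limma), and without unstimulated replicate 2 it was 3.31 and called, as it was on one median (2.04, unadjusted p = 0.0493 from limma). The call against control cells was kept on one median (2.44) and on one protein-coding sum (2.46). It was also kept in the fit of only the 4 libraries compared (2.78, SE 0.38, unadjusted p = 0.0043 from limma). It was lost with a pseudocount of 0.1 (2.91, unadjusted p = 0.170 from limma) and when any SMF or control library was left out, with changes from 2.33 to 3.23 and unadjusted p values from 0.0722 to 0.150 in limma's test.

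The depth behind *Bax* was 0 and 0.702 kb in unstimulated cells, 0.373 and 2.64 kb in control cells and 19.9 and 17.4 kb in SMF-treated cells, so that the lower levels rest on few reads. *Bax* exons share 192 of 1576 bases with *Gm45808* on the same strand, which measured at most 0.045 FPKM. The retained-intron transcript Bax-206 took 68.3% of *Bax* FPKM in unstimulated replicate 2 and 61.6% in control replicate 1, against 9.85% in control replicate 2 and 3.60 and 9.81% in the SMF libraries. The 270 bases around its start, chr7:45466879-45467148 on the minus strand of GRCm38.p6 (RefSeq), are shown because *Bax* had the largest change among the members. The capitals mark the E-box letters CACGTG, present in 7.15% of all promoter windows on either strand.
Bax promoter: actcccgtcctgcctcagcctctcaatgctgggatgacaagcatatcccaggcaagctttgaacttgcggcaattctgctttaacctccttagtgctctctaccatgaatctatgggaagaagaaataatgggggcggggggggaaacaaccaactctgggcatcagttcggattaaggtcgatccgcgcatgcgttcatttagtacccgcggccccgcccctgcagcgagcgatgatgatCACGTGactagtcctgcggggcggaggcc

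*Bak1* (ENSMUSG00000057789.13), on the minus strand of chromosome 17 from 27019810 to 27029009, encodes the effector that sits in the mitochondrial membrane. It was at 8.27 and 4.28 FPKM in unstimulated cells, 10.1 and 11.9 FPKM in control cells and 6.99 and 12.0 FPKM in SMF-treated cells. All 6 values lay between 4 and 12 FPKM and the SMF libraries spanned the control libraries. None of the 3 differences passed the test, and that of SMF-treated from control cells was -0.23 with a 95% interval from -1.42 to 0.96. *Bak1* exons face *Ggnbp1* on the other strand over 357 of 2407 bases, and *Ggnbp1* measured 9.50 to 48.8 FPKM. The ratio of *Bax* to *Bak1* was 0.618 and 1.06 in control cells and 9.62 and 5.60 in SMF-treated cells, and at 0 and 1.31 in unstimulated cells. A ratio within a library does not depend on how libraries were scaled.

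*Bcl2l11* (ENSMUSG00000027381.16), on chromosome 2 from 128126038 to 128162547, encodes BIM, the BH3-only protein that binds all prosurvival members. It measured 6.27 and 6.68 FPKM in unstimulated cells, 21.0 and 13.9 FPKM in control cells and 20.9 and 16.3 FPKM in SMF-treated cells. The stimulated groups overlapped and both stood above both unstimulated libraries. The rise was 1.28 in control cells (SE 0.39, adjusted p = 0.0994 and unadjusted p = 0.0164 from limma) and 1.38 in SMF-treated cells (SE 0.39, adjusted p = 0.0497 from limma). Within the 2 runs the former was 1.60 and 0.96. It fell short of the 2-fold limit without control replicate 1 (0.99), and the latter was not called without SMF replicate 1 (1.21, unadjusted p = 0.0653 from limma) or on one protein-coding sum (0.94). SMF-treated cells differed from control cells by 0.11, with a 95% interval from -0.84 to 1.06.

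The start of *Bcl2l11* is shown because the gene is known as a target of FOXO factors and rose together with *Bcl2l1*. The window is chr2:128125788-128126057 on the plus strand of GRCm38.p6 (RefSeq), and the capitals mark the FOXO core GTAAACA, found in 3.65% of all windows on either strand. The other start window of *Bcl2l11* did not hold it. Of 14 windows of 9 members, 2 held this core, 2 held the NF-kappaB consensus, 2 held CACGTG and 0 held the STAT5 letters TTCNNNGAA, which 8.30% of all windows hold.
Bcl2l11 promoter: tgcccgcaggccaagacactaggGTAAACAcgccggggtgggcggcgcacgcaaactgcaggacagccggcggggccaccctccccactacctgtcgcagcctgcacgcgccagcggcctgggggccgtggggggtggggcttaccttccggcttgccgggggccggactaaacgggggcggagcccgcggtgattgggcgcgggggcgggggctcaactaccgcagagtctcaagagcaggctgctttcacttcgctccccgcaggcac

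*Pmaip1* (ENSMUSG00000024521.7), on chromosome 18, encodes NOXA, which binds MCL1 and A1. It was at 4.81 and 3.68 FPKM in unstimulated cells, 7.02 and 2.53 FPKM in control cells and 20.4 and 12.5 FPKM in SMF-treated cells. The SMF libraries stood above the other 4, which overlapped with one another. The difference from control cells was 1.68 (SE 0.56, adjusted p = 0.189 and unadjusted p = 0.0236 from limma) and that from unstimulated cells 1.71 (SE 0.56, adjusted p = 0.0733 from limma). Against control cells the call was lost on one median (1.34), on one protein-coding sum (1.37), in the fit of the 4 libraries compared alone, and without control replicate 2 (1.09), either SMF library or either unstimulated library. Against unstimulated cells it was lost without any of the 4 libraries compared (1.38 to 2.04) and on one protein-coding sum (1.28). Control and unstimulated cells differed by 0.03, with a 95% interval from -1.34 to 1.40.

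*Bid* (ENSMUSG00000004446.12), on the minus strand of chromosome 6 from 120891930 to 120916853, links death receptors to mitochondria after cleavage by caspase 8. Its levels were 28.6 and 40.0 FPKM in unstimulated cells, 16.5 and 27.4 FPKM in control cells and 34.5 and 21.2 FPKM in SMF-treated cells. It was lower in both control libraries than in both unstimulated libraries, by a difference of -0.65 that did not pass the test (SE 0.42, unadjusted p = 0.175 from limma), while SMF-treated cells overlapped with both. *Bid* exons face *Bcl2l13* on the other strand over 628 of 3550 bases. *Bbc3* (ENSMUSG00000002083.13), on chromosome 7 from 16308393 to 16318205, encodes PUMA, a BH3-only target of p53. It was at 9.75 and 14.4 FPKM in unstimulated cells, 11.0 and 7.03 FPKM in control cells and 16.7 and 12.4 FPKM in SMF-treated cells. Both SMF values lay above both control values, with a difference of 0.65 (SE 0.43, unadjusted p = 0.180 from limma) that did not pass the test.

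Counted together, 2 of the 10 members, *Bcl2l1* and *Bcl2l11*, rose in control over unstimulated cells, and 0 fell, where a call needs a 2-fold change or more and a p up to 0.05 before adjustment. In this comparison 24.8% of all genes tested were called, 12.3% as higher and 12.6% as lower, so the share of members is close to that of all genes. With the replicate number as a block, which for these groups is also the run, 4 members were called, *Bax* and *Bcl2a1b* in addition. In the fit of these 4 libraries alone with that block, added after the data were seen, *Bcl2l1* and *Bcl2a1b* were called (unadjusted p = 0.0335 and 0.0082 from limma) and *Bcl2l11* was not (unadjusted p = 0.0601 from limma). The median log2 fold change was 0.40 over the members and -0.05 over all genes. Control libraries lay above unstimulated libraries without overlap for 5 members (24.8% of all genes) and below for 3 (26.6%). Set against each other within each of the 2 runs, the same 5 were higher in both and the same 3 lower in both, as were 30.9% and 32.5% of all genes. *Bbc3* and *Pmaip1* changed direction between runs. After adjustment 0 members had an adjusted p under 0.05 in limma's test, against 8.48% of all genes, while 3 reached 0.05 before adjustment. In bulk RNA, fewer cells of a type and less RNA per cell cannot be told apart. Of 8 B cell markers, 8 were above 0 in both unstimulated libraries, with a summed level of 357 and 321 FPKM, against 46.3 to 75.9 FPKM in stimulated cells, where 2 to 4 were at 0. The 8 myeloid markers summed to 131 and 154 FPKM in unstimulated cells and 41.1 to 53.8 FPKM in stimulated cells, with *Lyz2* at 0 in all 4. Almost all that remained was *Csf1r*, at 41.1 to 53.8 FPKM in stimulated and 68.5 and 63.9 FPKM in unstimulated cells. The part of B and myeloid cells in the differences of the members was not tested.

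In SMF-treated against control cells 3 of the 10 members, *Bax*, *Mcl1* and *Pmaip1*, were called higher and 0 lower. Calls covered 18.2% of all genes, 12.5% higher and 5.72% lower. The median was 0.61 over the members and 0.32 over all genes, and on one median per library the calls over all genes turned from 1868 higher and 857 lower to 877 higher and 1441 lower. On one protein-coding sum they were 924 higher and 1307 lower. Under either rescaling *Bax* was the one member still called. In 6 members both SMF values exceeded both control values, as in 37.4% of all genes, and in 0 both fell below, against 17.4%. No member had an adjusted p under 0.05 in limma's test (0 of 10, with 3 at 0.05 or less before adjustment), as was so for all but 4 of 14991 genes (0.0267%). The number called was 1, *Mcl1*, without either SMF library, 2 without control replicate 1 and 0 without control replicate 2. Summed levels of the 6 CD8 T cell markers were 950 and 854 FPKM in SMF-treated and 349 and 566 FPKM in control cells. In unstimulated cells they were 658 and 784 FPKM. The sums had the same order of groups as *Mcl1* and *Bcl2*, but not every marker did. *Cd8b1* was highest in unstimulated cells, at 143 and 271 FPKM, and *Cd3e* of SMF-treated cells overlapped with both other groups. Summed B cell markers were 75.9 and 68.3 FPKM in SMF-treated and 48.2 and 46.3 FPKM in control cells. Most of each sum was *Ighm*, at 68.5 and 65.1 FPKM in SMF-treated and 25.0 and 36.9 FPKM in control cells. *Cd79a* went the other way, at 1.85 and 2.43 FPKM in SMF-treated and 13.4 and 6.96 FPKM in control cells. The 8 genes of the activation list, 8 of them above 0 in all libraries, summed to 2794 and 4983 FPKM against 2047 and 2004 FPKM. The part of these, of depth and of the protein-coding share was not tested.

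Against unstimulated cells, SMF-treated cells had 5 members called higher, *Bax*, *Bcl2l1*, *Bcl2a1b*, *Pmaip1* and *Bcl2l11*, and 0 lower. Of all genes 37.2% were called, 22.4% as higher and 14.8% as lower. The median was 0.96 over the members and 0.27 over all genes. In 7 members both SMF values exceeded both unstimulated values, as in 39.7% of all genes, and in 0 both fell below, against 26%. An adjusted p under 0.05 in limma's test was reached by 3 of 10 members, *Bcl2l1*, *Bax* and *Bcl2l11*, and by 23.6% of all genes. On one protein-coding sum, where 2345 genes were higher and 3018 lower against 3351 and 2226 as deposited, 2 members stayed called, *Bax* and *Bcl2l1*. The number was also 2 without SMF replicate 1 and 3 without SMF replicate 2 or unstimulated replicate 2. The comparisons share libraries, so their counts are not independent of one another.

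**Figure D3:**
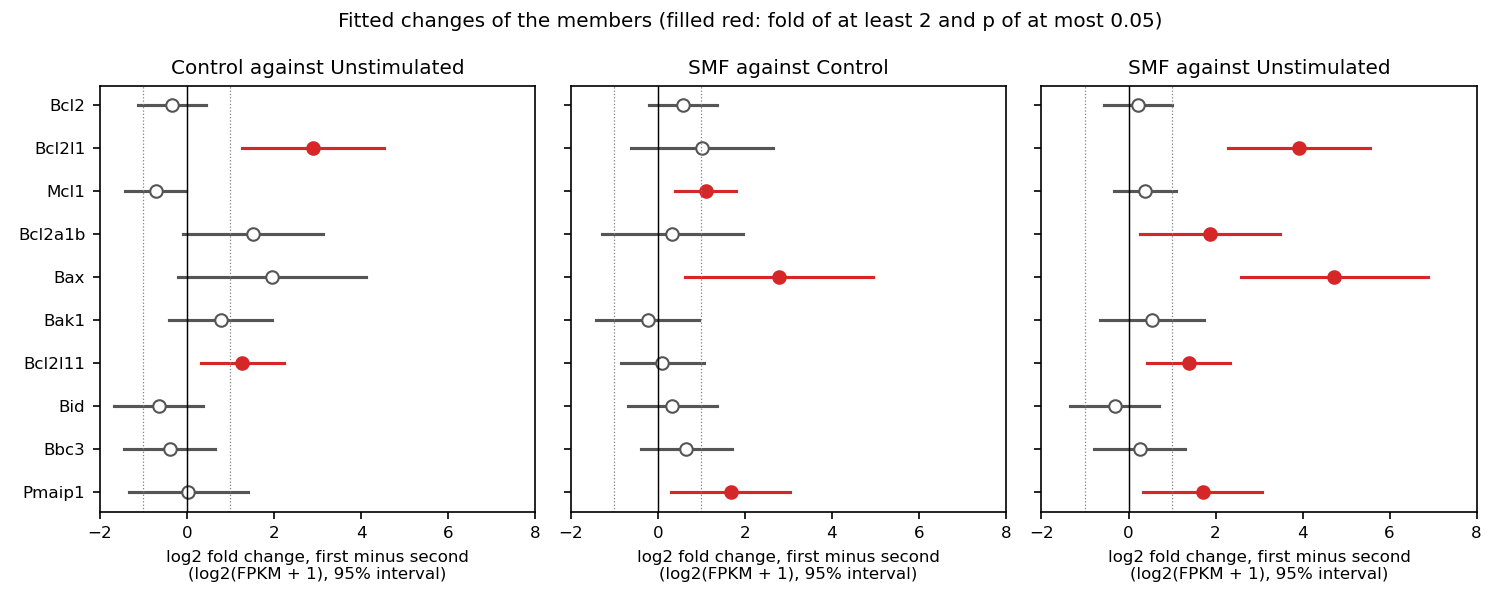
Fitted log2 fold changes of the 10 members on the log2(FPKM + 1) scale with 95% intervals from limma, one panel per comparison; dotted lines mark the 2-fold limit. Filled red points passed the fold and unadjusted p thresholds, 2 members in the left panel, 3 in the middle and 5 in the right.

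Ratios between members put the prosurvival and death genes of one library on one scale. *Bcl2* to *Bcl2l11* stood at 3.06 and 2.71 in unstimulated cells, at 0.652 and 1.09 in control cells and at 1.11 and 1.27 in SMF-treated cells. The unstimulated libraries were thus above all 4 stimulated ones. *Bcl2l1* to *Bcl2* was at 0 and 0.147 in unstimulated cells, 1.04 and 0.809 in control cells and 1.02 and 1.58 in SMF-treated cells. *Mcl1* to *Pmaip1* was 13.3 and 16.3 in unstimulated cells, 6.42 and 12.1 in control cells and 3.98 and 6.42 in SMF-treated cells, where the stimulated groups met. The summed prosurvival to the summed BH3-only members overlapped across the 3 groups, at 2.32 and 1.41, 2.92 and 1.78, and 2.03 and 3.39 in unstimulated, control and SMF-treated cells. *Bid* gave 28.6 of 49.5 and 40.0 of 64.8 FPKM of the BH3-only sum in unstimulated cells. In control cells it gave 16.5 of 55.5 and 27.4 of 50.9 FPKM. In both groups 91.0 to 100% of *Bid* lay on Bid-204, a transcript typed as nonsense-mediated decay. The 2 effectors together measured 8.27 and 9.87 FPKM in unstimulated, 16.4 and 24.4 FPKM in control and 74.2 and 79.0 FPKM in SMF-treated cells. No test was run on these ratios.

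**Figure D4:**
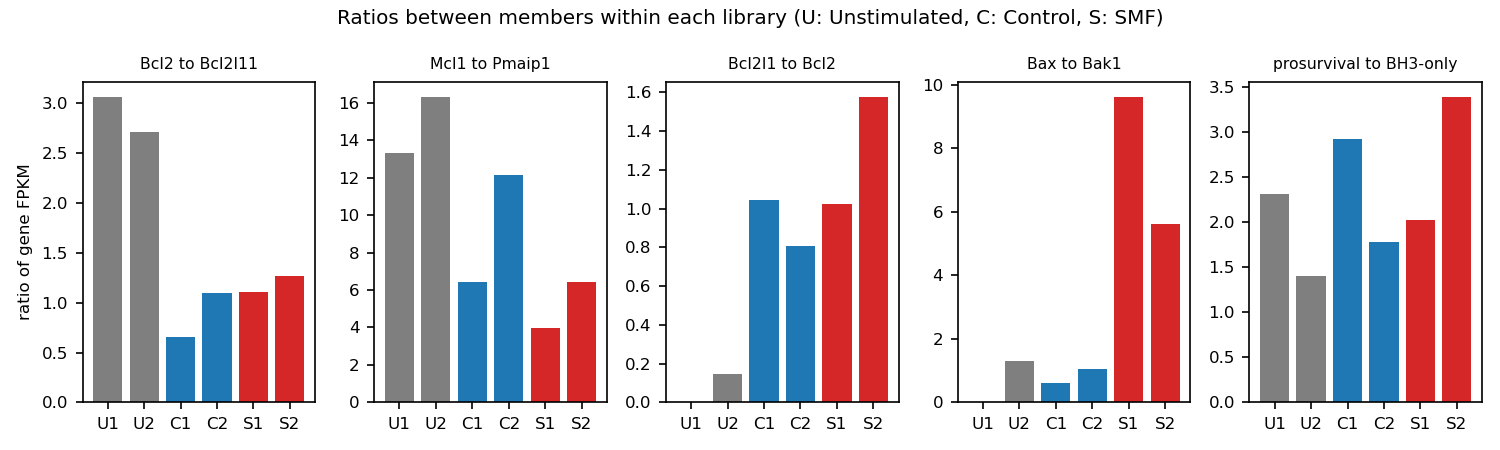
Ratios of gene FPKM between members in each library, one panel per ratio, as bars on linear axes from 0. Grey, blue and red bars are unstimulated, control and SMF-treated cells; *Bax* to *Bak1* is 5.60 or more in the SMF libraries and at most 1.31 elsewhere.

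The make-up of several members by transcript differed between the libraries of 2017 and 2018. For *Bcl2l11*, the transcript Bcl2l11-205 took 65.7 and 94.3% of FPKM in unstimulated cells and 94.2 and 84.2% in control cells, but 0.843 and 33.7% in SMF-treated cells. There Bcl2l11-203 took 85.6 and 58.7%, while it was at most 3.42% in the other 4 libraries. The gene levels of control and SMF-treated cells overlapped all the same. For *Bid*, transcripts typed as protein-coding were listed at 0 in all 4 unstimulated and control libraries and took 25.9 and 24.1% in SMF-treated cells, from Bid-201 in one library and Bid-203 in the other. The nonsense-mediated decay transcript Bid-204 took 91.0 to 100% of *Bid* in unstimulated and control cells and 40.9 and 50.8% in SMF-treated cells. For *Bbc3*, the retained-intron transcript Bbc3-203 took 64.8% in unstimulated replicate 2 and 42.0% in control replicate 2, both of the November run, and 0% in replicate 1 of both groups. Bcl2l1-202 led *Bcl2l1* in both control libraries and in SMF replicate 2, and Bcl2l1-201 was highest in SMF replicate 1 at 32.1%. Such shares are estimates from short reads of overlapping transcripts, and SMF-treated cells share no run with the others.

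**Figure D5:**
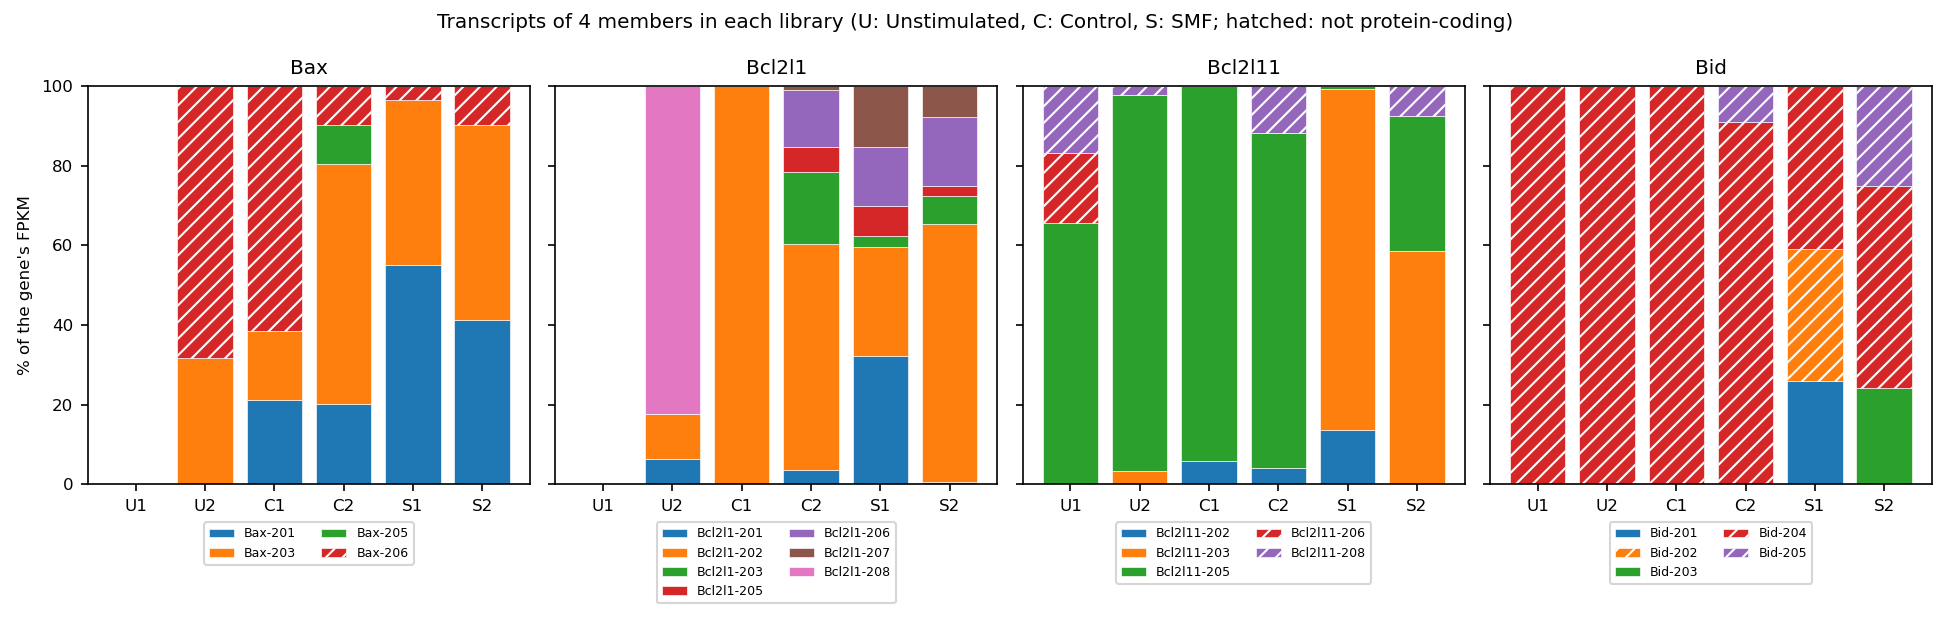
Share of each gene's FPKM on its transcripts, in percent, for *Bax*, *Bcl2l1*, *Bcl2l11* and *Bid* in each library; hatched parts are transcripts not typed as protein-coding, and empty columns are libraries where the gene was listed at 0. Bcl2l11-205 gives way to Bcl2l11-203 in the SMF libraries, and Bid-204 takes 91.0% or more outside them.

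Of 14 further BCL2 family genes, 7 passed the filter on low values. *Bik*, *Hrk*, *Bcl2l10* and *Bcl2l14* were listed at 0 in all 6 libraries. Control cells had 1 of the 7 higher than unstimulated cells, *Bcl2a1d*, and 0 lower, beside 12.3% and 12.6% of all genes. *Bad*, a BH3-only protein governed by growth factor signals, was at 28.5 and 37.4 FPKM in control and 10.7 and 13.4 FPKM in SMF-treated cells. It was the 1 gene of this list called between them, lower in SMF-treated cells by a log2 fold change of -1.38 (SE 0.36, adjusted p = 0.156 from limma). Of all genes 12.5% were called higher and 5.72% lower between these groups.

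Downstream of the membrane, 18 of 19 genes of the apoptosome and executioner caspases were tested, and 7 were higher and 1 lower in control than in unstimulated cells, where 12.3% of all genes were higher and 12.6% lower. *Birc5* (survivin, which also acts in mitosis) rose from 1.72 and 0.418 FPKM to 23.0 and 23.3 FPKM, a change of 3.62 with an adjusted p of 0.0142 from limma. *Vdac1*, a channel of the outer membrane, rose by 2.05 (adjusted p = 0.0246 from limma). The gene that was lower was *Birc3*, an inhibitor of apoptosis protein, at -1.26. Between SMF-treated and control cells 4 were higher and 0 lower, beside 12.5% and 5.72% of all genes. The largest of the 4 changes was that of *Cycs* (cytochrome c), at 26.7 and 15.3 FPKM in control and 61.1 and 66.8 FPKM in SMF-treated cells, with a log2 fold change of 1.61 (SE 0.54, adjusted p = 0.191 from limma). *Vdac3* followed at 1.55, *Birc5* at 1.54 and *Vdac2*, whose product restrains BAK, at 1.01. In SMF-treated against unstimulated cells 7 were higher and 0 lower (22.4% and 14.8% of all genes), among them *Birc5* (5.16) and *Cycs* (2.98). The medians of this list were 0.79, 0.85 and 1.40 in the 3 comparisons, against -0.05, 0.32 and 0.27 over all genes.

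Of the death receptor arm 7 of 8 genes were tested. Shares of all genes called higher and lower were 12.3% and 12.6% in control against unstimulated cells. They were 12.5% and 5.72% in SMF-treated against control cells and 22.4% and 14.8% in SMF-treated against unstimulated cells. *Tnfrsf10b*, a receptor for TRAIL, fell from 31.0 and 35.9 FPKM in unstimulated cells to 3.37 and 3.23 FPKM in control and 3.82 and 6.40 FPKM in SMF-treated cells, and was the 1 gene called in control cells (adjusted p = 0.0162 from limma). *Fas* measured 4.81 and 6.35 FPKM in control and 14.4 and 12.2 FPKM in SMF-treated cells. *Fas* and *Tradd*, an adaptor of TNF receptors, were the 2 called between these groups, higher in SMF-treated cells by 1.12 and 1.39, with adjusted p values of 0.212 and 0.195 from limma. *Fas*, higher by 1.40, and *Tnfrsf10b*, lower by a log2 fold change of -2.52, were the 2 called in SMF-treated against unstimulated cells.

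Of 11 regulators of BCL2 family genes and proteins, 3 were higher and 1 lower in control than in unstimulated cells, beside 12.3% and 12.6% of all genes. *Il2ra*, a chain of the interleukin 2 receptor, rose by 4.98 (adjusted p = 0.0052 from limma) and *Cdkn1a*, a p53 target, by 3.43 (adjusted p = 0.0233 from limma), and *Trp53*, the gene of p53, was higher by 1.34. *Il7r*, the receptor of the cytokine that sustains *Bcl2* in resting T cells, fell by 1.44, from 59.5 and 56.9 FPKM to 26.3 and 16.5 FPKM, with an adjusted p of 0.0999 from limma. In SMF-treated against control cells 2 were higher and 0 lower, beside 12.5% and 5.72% of all genes. The 2 were *Cdkn1a*, by 1.80, and *Usp9x*, which removes ubiquitin from MCL1, by 1.52, with adjusted p values of 0.179 and 0.170 from limma. *Usp9x* was at 9.37 and 16.8 FPKM in control and 49.4 and 29.1 FPKM in SMF-treated cells, and so did not overlap. Against unstimulated cells SMF-treated cells had 5 higher and 2 lower, beside 22.4% and 14.8% of all genes. The largest changes were those of *Il2ra* (5.79), *Cdkn1a* (5.22) and *Il7r* (-2.29). The others were *Usp9x*, *Trp53* and *Mdm2*, the ligase that degrades p53, which were higher by 1.16 to 1.74, and *Foxo1*, which was lower by a log2 fold change of -1.16.

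Of the 9 genes of the 4 lists called in SMF-treated against control cells, 5 stayed called on one median and 3, *Bad*, *Usp9x* and *Vdac3*, on one protein-coding sum, with 0 changes of sign. Of the 14 called in control against unstimulated cells, *Trp53* and *Cycs* lost their calls on one protein-coding sum or with gene TPM.

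Over the 6 libraries, among 52 genes of the members and lists, the pattern most like that of *Bax* was that of *Apaf1*, with a Pearson correlation of 0.963 of log2(FPKM + 1). *Bcl2l11* was most like *Il2ra* (0.943), and *Mcl1* and *Bcl2* both most like *Tradd* (0.932 and 0.939). *Bak1* paired with *Ddit3* (0.932), *Bbc3* with *Bcl2l13* (0.923), *Bcl2a1b* with *Fadd* (0.907), *Pmaip1* with *Vdac2* (0.856) and *Bid* with *Foxo3* (0.793). These 6 points share groups, runs and depths, and the values are descriptions.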

How the data were processed

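RNA was measured in 6 libraries in 3 groups of 2, with groups and replicate numbers from the sample labels. Libraries were made with a stranded total RNA kit for low input. The submitters' processing notes name Trimmomatic 0.36, HISAT2 and StringTie, and the file headers StringTie 1.3.5 with GENCODE M19 on GRCm38, for annotated transcripts and stranded reads. The deposited files give FPKM and TPM, normalized by the authors' StringTie runs for length and library size, and coverage, the deposited mean read depth per base. There are no counts, so no counting intervals are given, and bases covered are coverage times length. A table with 3 columns of no matched sample was not used.

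FPKM was summed over the transcripts of each gene. The 14991 of 54446 genes that averaged 1 FPKM or more were fitted as log2(FPKM + 1) with limma 3.58.1 (R 4.3.3, variance trend) on all 3 groups. A call needed a 2-fold change or more and a p up to 0.05 before adjustment, the study's thresholds, and adjusted p values (Benjamini-Hochberg) are over all genes. The fold scale understates changes of low genes. The fit was also run on simulated data with 200 planted changes. They were drawn without runs, unequal depth or genes listed at 0, so they cannot speak to these. All members were named, and of the 4 pathway lists at most the 3 called genes with the largest change per list and comparison, besides *Birc3*, *Vdac2*, *Trp53*, *Mdm2*, *Foxo1* and *Usp9x*, named where a count was small after their values were seen. Members, lists and thresholds were chosen with earlier results of these data known. Gene types, exons and coding sequences came from GENCODE M21 (54409 identifiers matched, 37 not), and promoters from RefSeq, whose table held 9 of 10 members. Python 3.11.15, pandas 2.3.3 and Biopython 1.88 were used. A few results of the lists are not reported here.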

Additional observations from a re-analysis of the deposited data

How the results depend on the processing

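Members called, 2, 3 and 5 in control against unstimulated, SMF-treated against control and SMF-treated against unstimulated cells, became 0, 0 and 3 at a Benjamini-Hochberg adjusted p under 0.05 from limma, where 1271, 4 and 3537 genes passed in all. With libraries on one median 1 member was called in SMF-treated against control cells, and on one protein-coding FPKM sum 1 there and 2 against unstimulated cells. Protein-coding transcripts alone gave 2358 genes called in control against unstimulated cells, in place of 3724. With the replicate number as a block, 4 members, *Bax* and *Bcl2a1b* in addition, were called in control against unstimulated cells. The block changed no other member's call. The differences of replicates correlated at 0.096 between unstimulated and control cells, 0.030 between unstimulated and SMF-treated cells and 0.021 between SMF-treated and control cells, so the numbers did not pair the libraries by the data. Fitted on the 4 libraries of 2017 with the block, which was added after the data were seen and sets the runs apart, 2 members were called, *Bcl2l1* and *Bcl2a1b*, and *Bcl2l11* was not (unadjusted p = 0.0601 from limma). Leaving out each library in turn gave 1 to 3, 0 to 3 and 2 to 5 members in the 3 comparisons, and 1367 to 3379 genes called in SMF-treated against control cells, in place of 2725.

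Of the members' changes under the alternatives, 20 changed sign, all of them differences that had not been called. Without a change of sign 30 lost a call, 12 gained one and 487 did neither. Among the 20, *Bid* in SMF-treated against unstimulated cells was called on protein-coding transcripts alone. In control against unstimulated cells *Pmaip1* was -0.11 with gene TPM, -0.095 on one protein-coding sum and -0.56 to 0.62 with a library left out. In SMF-treated against control cells one median gave -0.0029 for *Bcl2a1b*, -0.24 for *Bcl2l11* and -0.0092 for *Bid*, and one protein-coding sum -0.21 for *Bcl2l11*. With a library left out these ran from -0.38 to 1.06 for *Bcl2a1b*, -0.18 to 0.39 for *Bcl2l11*, -0.019 to 0.68 for *Bid* and -0.58 to 0.12 for *Bak1*. Against unstimulated cells *Bcl2* was -0.034 on one median and -0.24 on one protein-coding sum, where *Mcl1* was -0.10 and *Bbc3* -0.19. *Bid* ran from -0.65 to 0.025 with a library left out, and on protein-coding transcripts alone it was 2.96 against libraries listed at 0, which is no bound. The cause of these shifts was not tested. With 2 libraries a group, unequal depth and no run shared by SMF-treated and control cells, small changes of members such as *Bak1*, *Bid* and *Bbc3* could not be resolved.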
